A study of Mus musculus with 8 samples.

Results

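Imprinted genes are expressed mainly or wholly from the copy inherited from a single parent. The 40 protein-coding genes described here were taken by name, and all 40 were found among 21883 protein-coding genes of the RefSeq table. Their open chromatin was read from ATAC-seq peak lists of microglia, the macrophages that live in the brain, taken from the hippocampus of 3-week-old mice. ATAC-seq uses a transposase that cuts accessible DNA, so that open sites yield local excesses of reads called peaks. There were 4 control (Ctrl) libraries and 4 FGR libraries, FGR being the label of mice whose growth was restricted before birth. Mice of both groups carried a Tmem119-tdTomato+/- reporter, which is driven by a gene typical of microglia. The sources used here do not give the means of growth restriction, nor the number and sex of the animals behind a library, so p-values measure only the spread between these libraries.

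Imprinting rests on DNA methylation that is set in egg or sperm at imprinting control regions and kept through development on that copy alone. KRAB zinc finger proteins such as ZFP57 bind the methylated copy and hold repressive chromatin there, so that at an active imprinted start the other copy is the accessible one. Several of these genes set the growth of the fetus and placenta, paternally expressed ones often promoting it and maternally expressed ones often restraining it, and others act in brain development and feeding. A peak in these lists does not say which parental copy is open, and a missing peak says only that none was called.

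Each gene was read in a pair of ways. A gene-end peak is a peak that reaches within 1 kb of an end of the gene, whichever end. The locus of a gene is its whole span widened by 20 kb at both ends. The Ctrl lists had 10862 to 24195 peaks, the shortest being that of replicate 2, and the FGR lists 23327 to 29501. Values per library are given below in the order of replicates 1 to 4. Some libraries had peak summits on exactly the same base: 9.15% of summits in shared regions for FGR replicates 1 and 3, and 7.58% for FGR replicates 2 and 4. The other pairs among Ctrl replicates 3 and 4 and the FGR libraries had 1.75% to 2.14%, so each of those FGR pairs may count as 1 sample. Ctrl replicates 1 and 2 stood apart, with median peak widths of 566 and 522 bp against 353 to 386 bp in the other libraries. Each had 0.00707% to 0.0729% identical summits with Ctrl replicates 3 and 4 and the FGR libraries. Replicates 1 and 2 of both groups belong to deposit set 1, and replicates 3 and 4 to deposit set 2. Of 12 microglia markers, 6, among them Tmem119, Sall1 and Cx3cr1, had a gene-end peak in all 8 libraries and 0 had none. Itgam, an integrin subunit of myeloid cells, had one in 3 FGR libraries and 0 Ctrl. P2ry12 had one in 1 FGR library and 0 Ctrl, and Csf1r in 4 FGR libraries and 2 Ctrl. Spi1, Trem2 and Fcrls each had one in 4 FGR libraries and 3 Ctrl. Of 10 neuron markers, 8 had none in any library, and no library had more than 2. All 5 blood markers had none, as had 4 of 5 for astrocytes, 6 of 7 for the oligodendrocyte lineage, 3 of 5 for endothelial and mural cells and 3 of 4 for border macrophages. Of the endothelial markers, Kdr had a gene-end peak in all 8, and Flt1 in 4 FGR libraries and 1 Ctrl.

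The starts below show the kinds of sequence behind the results. They are the 250 bases before an annotated start, from RefSeq on GRCm38.p6, 5′ to 3′ on the gene's strand. Capitals mark TGCCGC or its reverse complement GCGGCA, the hexamer that ZFP57 recognises when methylated, and CGCATGCG, a core of the binding site of NRF1, a factor that binds its site when unmethylated. Ube3a, Copg2 and the last Gnas start had a peak over them in all 8 libraries, and Plagl1 had one in 3 FGR libraries. The first Gnas start and those of Grb10, Snrpn, Ndn and Nnat had none.
Ube3a, chr7:59228500-59228749, plus strand, peak in 8 libraries: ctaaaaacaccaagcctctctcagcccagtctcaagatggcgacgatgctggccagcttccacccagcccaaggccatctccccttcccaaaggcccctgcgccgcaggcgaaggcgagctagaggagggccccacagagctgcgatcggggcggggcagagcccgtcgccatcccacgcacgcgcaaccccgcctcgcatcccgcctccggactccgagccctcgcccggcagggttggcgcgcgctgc
Copg2, chr6:30896795-30897044, minus strand, peak in 8 libraries: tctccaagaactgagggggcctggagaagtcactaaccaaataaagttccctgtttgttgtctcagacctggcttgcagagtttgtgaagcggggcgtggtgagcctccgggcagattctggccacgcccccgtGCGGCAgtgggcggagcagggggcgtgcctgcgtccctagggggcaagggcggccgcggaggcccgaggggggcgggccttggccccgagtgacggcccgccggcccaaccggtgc
Gnas, last start, chr2:174329756-174330005, plus strand, peak in 8 libraries: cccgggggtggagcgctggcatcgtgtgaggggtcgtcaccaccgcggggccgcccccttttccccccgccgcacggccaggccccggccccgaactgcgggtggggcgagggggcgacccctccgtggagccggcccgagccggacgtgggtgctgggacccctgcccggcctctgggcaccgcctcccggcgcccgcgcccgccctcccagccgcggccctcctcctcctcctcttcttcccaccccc
Plagl1, chr10:13090582-13090831, plus strand, peak in 3 libraries: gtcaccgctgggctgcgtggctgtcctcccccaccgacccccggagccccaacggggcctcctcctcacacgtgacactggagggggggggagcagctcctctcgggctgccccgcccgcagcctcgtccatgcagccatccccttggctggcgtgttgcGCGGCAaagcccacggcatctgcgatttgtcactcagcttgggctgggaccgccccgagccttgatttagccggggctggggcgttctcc
Gnas, first start, chr2:174284070-174284319, plus strand, no peak: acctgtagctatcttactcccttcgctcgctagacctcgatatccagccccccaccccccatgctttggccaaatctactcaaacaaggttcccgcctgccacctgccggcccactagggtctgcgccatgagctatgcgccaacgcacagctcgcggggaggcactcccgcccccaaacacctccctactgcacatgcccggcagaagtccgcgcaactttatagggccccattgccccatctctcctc
Grb10, chr11:12037421-12037670, minus strand, no peak: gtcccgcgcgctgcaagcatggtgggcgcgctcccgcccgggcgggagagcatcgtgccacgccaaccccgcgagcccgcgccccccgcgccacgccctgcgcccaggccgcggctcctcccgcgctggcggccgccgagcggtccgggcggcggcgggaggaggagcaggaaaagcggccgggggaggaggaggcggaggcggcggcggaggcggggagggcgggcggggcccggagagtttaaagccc
Snrpn, chr7:60005200-60005449, minus strand, no peak: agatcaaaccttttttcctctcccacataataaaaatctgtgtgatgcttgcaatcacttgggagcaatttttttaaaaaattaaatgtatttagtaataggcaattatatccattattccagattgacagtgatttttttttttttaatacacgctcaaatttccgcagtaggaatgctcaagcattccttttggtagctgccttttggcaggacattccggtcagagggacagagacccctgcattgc
Ndn, chr7:62348027-62348276, plus strand, no peak: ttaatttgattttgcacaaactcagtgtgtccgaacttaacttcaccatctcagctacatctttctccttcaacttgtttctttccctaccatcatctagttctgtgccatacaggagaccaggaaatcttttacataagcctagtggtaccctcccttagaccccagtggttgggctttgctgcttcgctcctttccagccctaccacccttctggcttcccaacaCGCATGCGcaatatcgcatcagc
Nnat, chr2:157559828-157560077, plus strand, no peak: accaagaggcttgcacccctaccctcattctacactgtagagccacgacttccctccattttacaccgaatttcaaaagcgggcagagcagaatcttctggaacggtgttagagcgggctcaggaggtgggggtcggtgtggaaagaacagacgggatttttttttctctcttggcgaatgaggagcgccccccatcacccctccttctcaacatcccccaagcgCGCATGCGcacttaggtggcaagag
The open starts of Ube3a and Gnas and the Grb10 start without a peak are rich in CpG, and that of Snrpn is poor in it.

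Of the 40 imprinted genes, 6 (15%) had a gene-end peak in all 8 libraries, against 31.9% of all protein-coding genes. Another 17 (42.5%) had one in no library, against 42.2% of all genes. The remaining 17 had one in 1 to 6 libraries. Few of the 40 genes were thus open throughout beside the background, while the share with no peak was close to it. No test was made of these shares, since the genes were chosen with results of these data known.

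The 6 genes open throughout were Ube3a, Inpp5f, Copg2, Trappc9, Ppp1r9a and Blcap. The strength of each gene-end peak is given as its percentile by −log10 q within its own library's list. Inpp5f, an inositol phosphatase with a paternally expressed brain transcript, had the strongest peaks of the 6 by the median. Its percentiles were 99.2, 99.5, 98.5 and 99.8 in Ctrl and 99.3, 99.9, 99.6 and 99.7 in FGR. The peak lay at chr7:128610696-128611983, over the annotated start, and the groups overlapped. Ube3a, the ubiquitin ligase that neurons express from the maternal copy and many other cells from both, was at percentile 95.7, 89.0, 95.4 and 98.0 in Ctrl and 99.4, 98.1, 98.4 and 98.1 in FGR. The 4 FGR values lay just above the highest Ctrl value. Ranks in lists of different lengths show no change, and these are given as a description.

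Copg2, which encodes a subunit of the COPI coat of transport vesicles, had percentiles of 91.3, 89.1, 93.5 and 97.5 in Ctrl and 94.0, 86.7, 97.3 and 94.6 in FGR. Trappc9, a subunit of a complex of vesicle traffic, had 86.3, 67.6, 87.4 and 94.2 in Ctrl and 95.0, 94.3, 94.2 and 92.6 in FGR. Trappc9 was lowest in Ctrl replicate 2, the shortest list. Ppp1r9a, encoding neurabin, a scaffold that binds actin and protein phosphatase, had weaker peaks, at 22.3, 14.1, 52.6 and 55.2 in Ctrl and 24.2, 46.4, 41.0 and 64.6 in FGR. Blcap, whose intron houses the imprinted gene Nnat, had 23.4, 42.1, 40.9 and 69.8 in Ctrl and 12.6, 41.8, 30.4 and 37.1 in FGR. At all 4 of these genes the groups overlapped. The peaks of these 6 genes thus fell into a strong set of 4, with medians between percentile 93.4 and 99.6, and a middling pair, with medians of 43.7 for Ppp1r9a and 39.0 for Blcap.

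**Figure D1:**
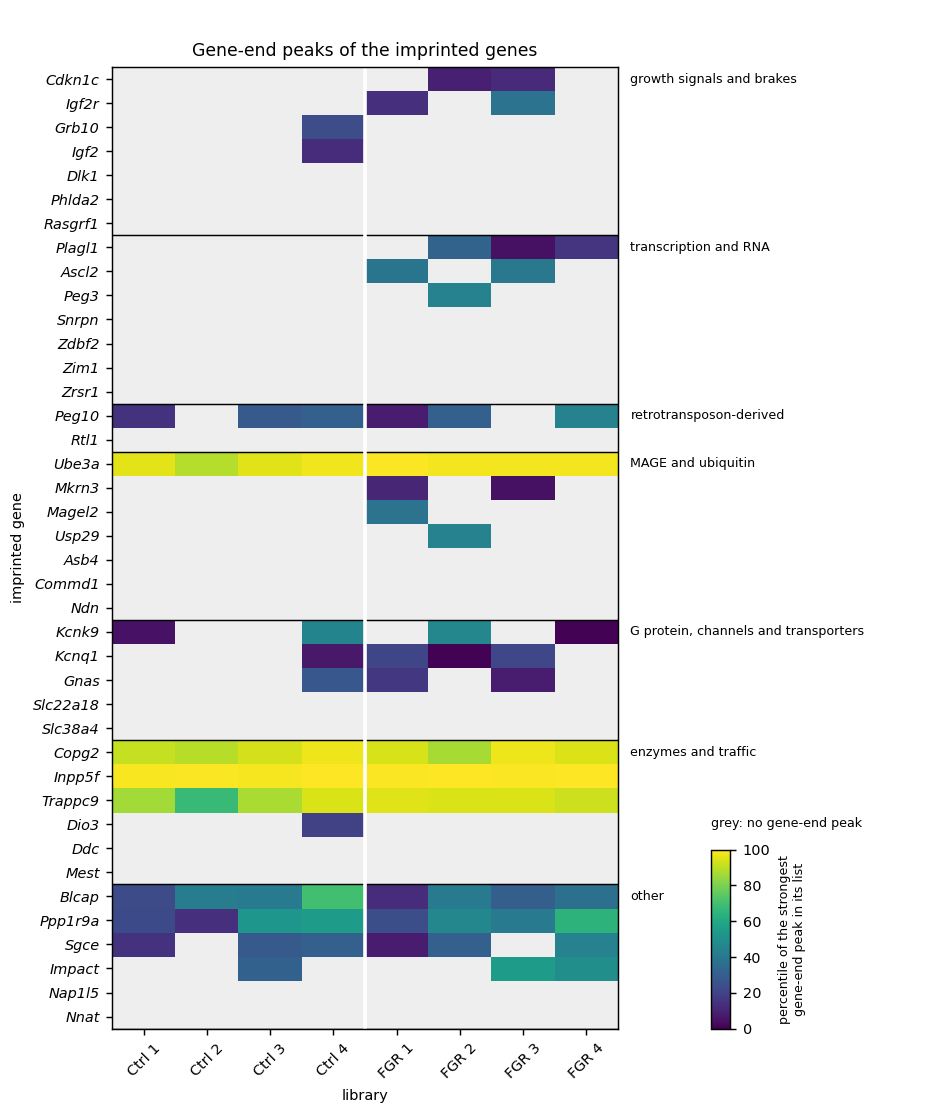
Rows are the 40 imprinted genes, grouped by role, and columns the 8 libraries; colour is the percentile, by −log10 q within its list, of the strongest gene-end peak, and grey means that none was called. 6 rows are filled in all 8 columns, 17 rows are empty, and the partly filled rows hold peaks up to percentile 55.4, a range they share with Ppp1r9a and Blcap.

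The 17 genes with no gene-end peak in any library include much of the classic set. Among growth genes they were Dlk1, a transmembrane ligand related to those of Notch, Phlda2, a brake on placental growth, and Rasgrf1, an exchange factor for Ras. Among genes of transcription and RNA they were Snrpn, a protein of the splicing machinery, the zinc finger genes Zim1 and Zdbf2, and Zrsr1, related to a splicing factor. Rtl1, a gene derived from a retrotransposon and needed in placenta, had none. Ndn, a MAGE protein of the Prader-Willi region, Asb4, a ubiquitin ligase adaptor, and Commd1, which regulates copper handling and NF-kappaB, had none. The transporter genes Slc22a18 and Slc38a4 had none, nor did Mest, a hydrolase-like gene, Ddc, which makes dopamine and serotonin from their precursors, Nnat, a small membrane protein of neurons, and Nap1l5. For Dlk1, Snrpn, Ndn, Zim1, Nap1l5 and Slc38a4, no library had any peak in the whole locus, which at Snrpn spans 508 kb. The loci of Mest and of Phlda2 held at most 1 peak in any library. Fewer cells with an open site and less opening per cell cannot be told apart in such bulk samples.

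Distance from the rule's limit mattered for a few genes. Commd1 had a region in all 8 libraries over an annotated start of its own, chr11:22981872-22982530, but 2009 bp from the end in the table. Peg10 had a region in all 8 libraries 1594 bp inside its end, chr6:4748900-4749631, beside its weaker gene-end peak. Just inside the limit, Impact had a region 923 bp from its end in 6 libraries, of which 3 reached within 1 kb.

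Annotated starts were read at finer scale. RefSeq lists 51 starts for 32 of the genes, and 8 genes (Cdkn1c, Peg10, Rtl1, Impact, Kcnq1, Trappc9, Kcnk9 and Sgce) have no entry there. A window from 250 bases before to 50 after each start was used. In all 8 libraries a peak covered 7 of the 51 starts (13.7%), against 28.7% of the starts of all protein-coding genes. These belonged to Ube3a, Inpp5f, Copg2, Ppp1r9a, Blcap, Commd1 and Gnas. No library had a peak over 36 starts (70.6%), against 48.1% of all starts. The median number of CpG sites in the window was 25 for the 7 open starts, with a range of 15 to 48. It was 10 for the 36 without a peak, with a range of 2 to 45. Over all protein-coding genes the medians were 25 and 4, and among starts without a peak the imprinted ones had the higher median. The Grb10 start printed above had 45 CpG sites in its window and no peak in any library. Grb10 encodes an adaptor that restrains insulin and growth factor signalling, and in mice its maternal and its brain-specific paternal transcripts start at different sites. Phlda2 and Rasgrf1 each had a start with 26 CpG sites and no peak, and Dio3, which inactivates thyroid hormone, had 25.

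**Figure D2:**
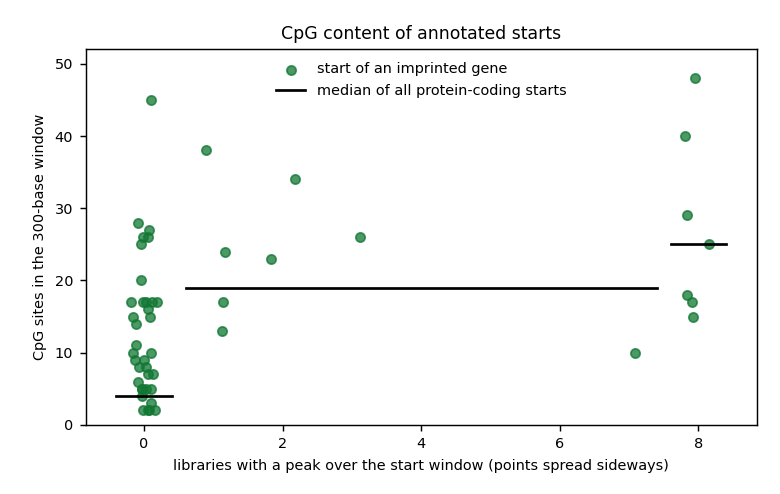
Each green point is 1 of the 51 annotated starts, placed by the number of libraries with a peak over it and by the number of CpG sites in its 300-base window; black lines are the medians over all protein-coding starts with a peak in no library, in 1 to 7 and in all 8. Many imprinted starts without a peak lie above the black median of 4, the highest at 45.

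The letters of the start windows were searched on both strands. These windows include the 50 bases after the start, which are not printed above. The matches counted at the printed starts of Snrpn and Grb10, and TGCCGC at Nnat, reach into those bases and carry no capitals. TGCCGC was present at 12 of the 51 imprinted starts (23.5%) and at 14.1% of all protein-coding starts. Among the imprinted starts it was present at 2 of the 7 open throughout and at 9 of the 36 without a peak. CGCATGCG, which is its own reverse complement, was present at 7 of the 51 (13.7%) and at 2.52% of all starts. All 7 were starts without a peak in any library. They belonged to 4 genes, with 4 starts of Snrpn and 1 each of Ndn, Nnat and Commd1, the last being a start other than the open one of that gene. By genes, that is 4 of 32 (12.5%) against 2.77% of all genes with a start. A match is a description of letters, and binding was not measured.

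By expressed copy, 1 of 22 paternally expressed genes (Inpp5f, 4.55%) had a gene-end peak in all 8 libraries. Of 15 maternally expressed genes, 5 had one in all 8 (Ube3a, Copg2, Trappc9, Ppp1r9a and Blcap, 33.3%), near the 31.9% of all protein-coding genes. No library had one at 11 of the 22 (50%) and at 5 of the 15 (33.3%), against 42.2% of all genes. None of these shares was tested, and the genes are few. For several of the 5 maternally expressed genes open in all 8 libraries, maternal expression is known from some tissues and cell types, with both copies active in others. For Inpp5f, paternal expression is that of a brain transcript, and whether the open annotated start serves it was not examined. A list of 11 genes was taken as having a methylation imprint at their own or a shared start. Of these, 0 had a gene-end peak in all 8 libraries and 5 (45.5%) had none. The rule on gene ends misses regions further inside, and 2 of the 11 genes had such a region in all 8 libraries. These were Peg10, with the region given above, and Impact, with chr18:12972973-12974652 at percentiles 85.6 to 94.6. The other 29 genes can hold such regions as well. Those 29 include Inpp5f, Grb10 and Gnas, which have imprinted transcripts of their own, so the division depends on that list. Of these 29, 6 (20.7%) had one in all 8 and 12 (41.4%) had none. By role, 3 of 6 genes of enzymes and traffic (50%) were open throughout, against the same 31.9%. So were 1 of 7 of the MAGE and ubiquitin group (Ube3a, 14.3%) and 2 of 6 with other roles (Ppp1r9a and Blcap, 33.3%). None of 7 growth genes, of 7 genes of transcription and RNA, of 2 genes derived from retrotransposons, or of 5 channels, transporters and G protein genes was.

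At several loci the open site lay inside the gene, away from its ends. Gnas encodes the alpha subunit of the stimulatory G protein from its last promoter, and upstream promoters give imprinted transcripts. The region over the last start, chr2:174329410-174331017, was called in all 8 libraries. Its percentiles were 64.5, 61.2, 42.2 and 52.7 in Ctrl and 80.2, 59.8, 74.8 and 44.5 in FGR, and the groups overlapped. The other 3 annotated Gnas starts, with 16, 27 and 28 CpG sites against 40 at the open one, had no peak in any library. A further region near the 3′ end, chr2:174343959-174344661, was also called in all 8.

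Kcnq1, which encodes a potassium channel, contains the start of Kcnq1ot1. That long RNA runs antisense from the paternal copy, its start region is an imprinting control region, and it silences neighbours such as Cdkn1c, Slc22a18 and Phlda2 on that copy. A region over the Kcnq1ot1 start, chr7:143296302-143296934, was called in all 8 libraries. Its percentiles were 83.9, 3.44, 94.9 and 77.0 in Ctrl and 85.2, 81.7, 90.0 and 86.8 in FGR. All but Ctrl replicate 2 placed it in the upper part of the list. Of the neighbours, Slc22a18 and Phlda2 had no gene-end peak in any library, and Cdkn1c, an inhibitor of the cell cycle, had one in FGR replicates 2 and 3, at percentiles 8.69 and 11.9.

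**Figure D3:**
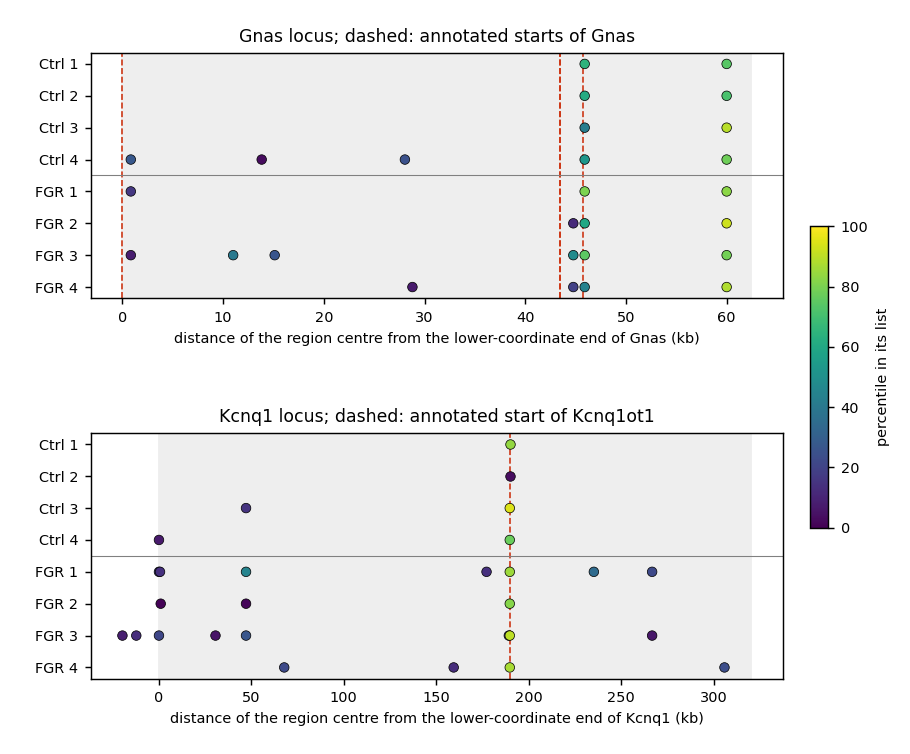
Points are the regions called at Gnas (top) and Kcnq1 (bottom) in each library, by distance in kb from the lower-coordinate end of the gene, coloured by percentile within the list; grey marks the gene span and dashed lines annotated starts of Gnas or of Kcnq1ot1. At Gnas only the last start carries a region in all 8 libraries, and at Kcnq1 the Kcnq1ot1 start does, while the other Kcnq1 regions are mostly in FGR libraries and weak.

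Other imprinted noncoding RNAs were mostly without peaks. Peg13, which lies inside Trappc9, had a gene-end peak in 6 libraries, with none in Ctrl replicate 2 and FGR replicate 2. Igf2os and Mirg had one in 1 library each. H19, Meg3, Rian, Airn, Snhg14, A230057D06Rik and Mir296 had none. Peg10 and Sgce, which lie head to head, shared a gene-end region, chr6:4746715-4747601, in 6 libraries. It was missing from Ctrl replicate 2 and FGR replicate 3, and its percentiles ran from 7.44 to 44.4. At Kcnk9, a potassium channel, 2 Ctrl and 2 FGR libraries called such a peak, and all 8 called a region inside the gene, chr15:72528312-72529148.

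Ctrl and FGR libraries differed in how many of the 40 genes had a gene-end peak. The count was 9, 6, 9 and 14 in Ctrl and 14, 14, 14 and 11 in FGR. FGR replicates 1 to 3 matched the highest Ctrl library, and the groups overlapped. As a share this was 23.8% ± 8.29 in Ctrl and 33.1% ± 3.75 in FGR (SD, n = 4 libraries each), a difference of 9.38 percentage points. Over all protein-coding genes the share was 42.7% in Ctrl and 46.7% in FGR, a difference of 4.01 points. When every list was cut to its strongest 10862 peaks, the length of the shortest, the imprinted share was 13.1% in Ctrl and 10.6% in FGR, so the direction turned. Between Ctrl replicates 3 and 4 and FGR replicates 3 and 4 alone the difference was 2.5 points, and without Ctrl replicates 1 and 2 it was 4.38. Some lists of marker genes moved with the group as well, and others did not. The share with a gene-end peak was 72.9% in Ctrl and 91.7% in FGR over the 12 microglia markers, and 25% and 40% over the 5 endothelial and mural markers. It was 5% and 7.5% over the 10 neuron markers. For astrocytes it was 0% and 5%, and for border macrophages 0% and 6.25%. The oligodendrocyte lineage had 7.14% in both groups, and blood 0% in both. The part of these markers in the imprinted difference was not tested.

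**Figure D4:**
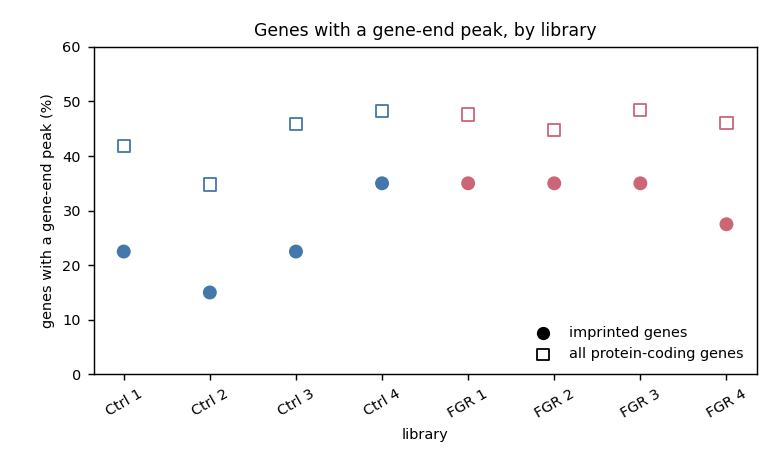
The percent of genes with a gene-end peak in each library, for the 40 imprinted genes (filled circles) and all protein-coding genes (open squares), Ctrl in blue and FGR in red. In every library the imprinted share, 15% to 35%, lies below the share of all genes, 34.8% to 48.4%.

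Gene by gene, 11 of the 40 genes had a gene-end peak in more FGR than Ctrl libraries, against 16.5% of all genes, and 3 (Igf2, Grb10 and Dio3, each in Ctrl replicate 4 alone) in more Ctrl than FGR libraries, against 5.5%. A difference of at least 2 libraries towards FGR was seen at 6 of the 40 genes, against 4.94% of all genes, and towards Ctrl at 0, against 1.04%. A difference of at least 3 libraries was seen at 1 gene, against 1.21% of all genes. That gene was Plagl1, a zinc finger transcription factor with an imprinted start, known for restraining the cell cycle and for regulating other imprinted genes. No Ctrl library had a gene-end peak there, while FGR replicates 2, 3 and 4 each had 1, at percentiles 31.9, 4.44 and 14.9. All 3 were the same region, chr10:13090591-13091158, over the start shown above, and all were weak.

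The other 5 were carried by few libraries. Igf2r, the receptor that clears IGF2, had a gene-end peak in FGR replicates 1 and 3, at percentiles 14.1 and 38.0. Ascl2, a transcription factor of the placenta, had one in the same libraries, at 39.0 and 40.04. Mkrn3, a ubiquitin ligase that restrains the onset of puberty, had one there too, at 10.9 and 4.44. FGR replicates 1 and 3 are the pair with shared summits, so these 3 genes rest on what may be 1 sample. Cdkn1c had its peaks in FGR replicates 2 and 3, as given above. Kcnq1 had one in Ctrl replicate 4 at 6.92 and in FGR replicates 1, 2 and 3 at 20.8, 0.405 and 21.4. The smaller differences were 1 library each, at Peg3 and Usp29 (a shared region in FGR replicate 2), Magel2 (FGR replicate 1), Impact and Gnas.

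Peaks in the whole loci were counted next. Some loci overlap, so that the 40 form 28 separate stretches, and a peak was counted once. Such peaks numbered 31, 20, 45 and 48 in the Ctrl lists, against 67, 49, 70 and 55 for FGR. Per 10000 peaks of the library, this was 19.2, 18.4, 19.8 and 19.8 in Ctrl and 24.6, 21.0, 23.7 and 21.0 in FGR. All FGR values lay above all Ctrl values. No such value is given here for other sets of loci, so whether the shift is particular to imprinted loci was not tested. On average this came to 19.3 ± 0.67 for Ctrl, against 22.6 ± 1.88 for FGR (SD, n = 4 libraries each), a difference of 3.25. FGR replicates 1 and 3 were the 2 highest, and with each summit-sharing FGR pair averaged the SD of FGR was 2.26. Without the stretch that holds Kcnq1, Cdkn1c, Slc22a18 and Phlda2, the means were 17.98 and 19.9 and the groups overlapped. In lists of equal length the difference was −0.23, and with a minimum −log10 q of 5 it was 0.835. Without Ctrl replicates 1 and 2 it was 2.75.

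Of the 40 loci, 9 had a mean of at least 2 peaks and entered a test of peaks per 10000 over 8034 loci by limma with Benjamini-Hochberg adjustment. The other 31 did not pass this filter. Of the 9, 0 were called higher and 0 lower at an adjusted p under 0.05. Over all loci 1 was called higher (0.0124%) and 0 lower (0%). At an unadjusted p under 0.05, Kcnq1 was higher in FGR, against 2.6% of all loci, and Commd1 was lower, against 15.6%. Kcnq1 passed the filter only through its FGR libraries, since its Ctrl lists held 1, 1, 2 and 2 peaks. Its p is thus given as a description, and no conclusion is drawn from it. The median difference was −0.12 on the log2 scale at the 9 loci and −0.28 over all loci.

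At Kcnq1 there were 1, 1, 2 and 2 peaks in the Ctrl lists, against 7, 3, 8 and 4 for FGR. Per 10000 peaks these were 0.621, 0.921, 0.881 and 0.827 in Ctrl and 2.57, 1.29, 2.71 and 1.52 in FGR. The groups did not overlap, and FGR replicates 1 and 3 were the highest. The log2 difference was 0.95 ± 0.27 (SE), with an adjusted p of 0.129 by limma. Without Ctrl replicates 1 and 2 it was 0.995 ± 0.29 (SE), with an adjusted p of 0.452, and with replicates 1 and 3, and 2 and 4, averaged in both groups, though the Ctrl pairs share few summits, the adjusted p was 0.253. Apart from the Kcnq1ot1 start, no Kcnq1 region was called in all 8 libraries. Most of the others were called in a single FGR library, at percentiles of 0.405 to 34.4. In lists of equal length, and with a minimum −log10 q of 5, Kcnq1 had too few peaks to be tested.

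The Commd1 locus held 3, 2, 4 and 4 peaks in Ctrl and 2, 2, 3 and 4 in FGR. Per 10000 peaks it had 1.65 to 1.86 in Ctrl and 0.735 to 1.52 in FGR, without overlap. The log2 difference was −0.80 ± 0.25 (SE), with an adjusted p of 0.158 by limma. The peak numbers themselves were 2 to 4 in both groups, and the FGR lists are the longer ones. That value was −0.35 with a margin of 50 kb, −0.46 with a minimum −log10 q of 5 and −0.43 between replicates 3 and 4 of both groups alone. Zrsr1 lies inside Commd1 and shares its peaks. Its locus held 2, 2, 2 and 3 peaks in Ctrl and the same numbers in FGR, so its difference arises from the division by list length. Per 10000 peaks these were 1.24, 1.84, 0.881 and 1.24 in Ctrl and 0.735, 0.857, 0.678 and 1.14 in FGR, with overlap. The log2 difference was −0.59 ± 0.30 (SE), with an adjusted p of 0.275 by limma. It was −0.30 ± 0.28 without Ctrl replicates 1 and 2 and −0.25 between replicates 3 and 4 of both groups alone.

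Impact encodes a regulator of translation under stress. Its locus held 3, 2, 3 and 3 peaks in Ctrl and 8, 5, 6 and 6 in FGR. Per 10000 peaks these were 1.24 to 1.86 in Ctrl and 2.03 to 2.94 in FGR, without overlap. The log2 difference was 0.46 ± 0.24 (SE), with an adjusted p of 0.275 by limma, and 0.75 ± 0.21 without Ctrl replicates 1 and 2, with an adjusted p of 0.450. It was 0.12 within the gene span without a margin and 0.067 with a minimum −log10 q of 5. Ppp1r9a had 3, 1, 5 and 4 peaks in Ctrl and 8, 6, 9 and 4 in FGR. Its groups overlapped, with a log2 difference of 0.46 ± 0.24 (SE) and an adjusted p of 0.279. That value was 0.30 without Ctrl replicate 2 and 0.15 between replicates 3 and 4 of both groups alone. In lists of equal length both differences turned, to −0.063 at Impact and −0.12 at Ppp1r9a. Kcnk9 held 2, 1, 3 and 2 peaks in Ctrl and 2 in each FGR library, with a log2 difference of −0.53 ± 0.32 (SE) and an adjusted p of 0.323. Gnas, Copg2 and Trappc9 differed by −0.24, −0.12 and 0.09, within their standard errors. FGR values lay wholly above Ctrl values at 2 of the 9 loci, against 1.46% of all tested loci, and wholly below at 1, against 5.8%. Of the 2, Kcnq1 passed the filter only through its FGR libraries.

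**Figure D5:**
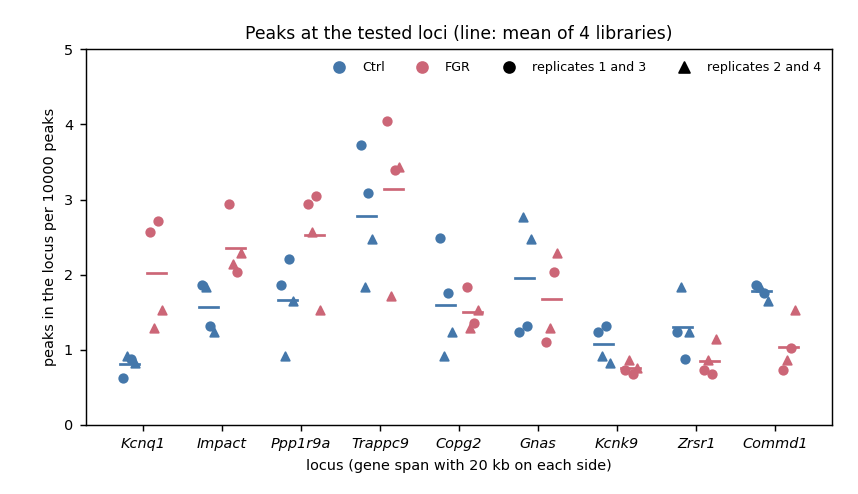
Peaks per 10000 peaks of the library at the 9 tested loci, with Ctrl in blue, FGR in red, circles for replicates 1 and 3, triangles for replicates 2 and 4, and a line at each mean of 4 libraries. Kcnq1 and Impact have all FGR points above all Ctrl points, and Commd1 has all below.

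The 40 loci held 130 of 52177 regions made by merging the lists. Of these, 17 (13.1%) were called in all 8 libraries, against 16.9% of all regions. At 6 of the 17 the region lay at the end of an imprinted gene, namely the genes open throughout. The region in the Ddc locus lay over the start of Fignl1, and 1 region of the Commd1 locus lay at the end of Cct4, so these came from neighbours that are not imprinted genes of this list. No region was called in 4 FGR and 0 Ctrl libraries, against 0.866% of all regions, or in 4 Ctrl and 0 FGR libraries, against 0.0268%. Fisher's exact test, run over 16010 regions called in 2 to 6 libraries, had a smallest two-sided p of 0.0286 and a smallest adjusted p of 0.837. That p, reached by 466 regions, is the lowest this test can give with 4 against 4 libraries. It could thus hardly call a single region after adjustment, and no conclusion is drawn from it.

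Short of that, 4 regions (3.08%) were called in 3 FGR and 0 Ctrl libraries, against 1.81% of all regions, and 0 in 3 Ctrl and 0 FGR libraries, against 0.153%. They were the Plagl1 start, a region just before the last Gnas start (chr2:174328905-174329264, in FGR replicates 2, 3 and 4), and 2 regions at Impact, both in FGR replicates 1, 2 and 4. Of the 130 regions, 68 (52.3%) were called in FGR libraries alone, against 42.3% of all regions, and 18 (13.8%) in Ctrl libraries alone, against 14.9%. In FGR replicates 1 and 3 alone there were 9 (6.92%), against 3.78%. A single library accounted for 67 of the 130 (51.5%), against 45.9% of all regions.

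Other imprinted genes and the genes that maintain imprints were counted in the same way. Of 25 further imprinted genes, 7 (28%) had a gene-end peak in all 8 libraries, near the 31.9% of all protein-coding genes. They were Mcts2, Pon2, Cd81, Tssc4, Nap1l4, Tnfrsf23 and Dhcr7. Another 8 (32%) had none, against 42.2% of all genes. The low share open throughout among the 40 genes was thus not seen in this list. At Peg12, next to Mkrn3 in the Prader-Willi region, 0 Ctrl and 4 FGR libraries had such a peak. It was the only 1 of the 25 with a difference of at least 3 libraries, against 1.21% of all genes towards FGR. The strength of its peaks was not examined. Of 18 genes of imprint maintenance, 8 (44.4%) had a gene-end peak in all 8 libraries, against the same 31.9%. They included Trim28, the corepressor that KRAB zinc fingers recruit, Ctcf, the insulator protein, Dnmt3b, a DNA methyltransferase, and Smchd1, a chromatin protein that silences some imprinted genes. Another 6 had none, and no gene of that list differed by 3 or more libraries between the groups.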

How the data were processed

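ATAC-seq peak lists of 4 Ctrl and 4 FGR libraries were used, 1 list per library. Per the submitters' processing notes, the tools were MACS2 2.2.7.1 and DiffBind 3.12.0, with Trim Galore 0.6.5, SAMtools 1.3.1 and Bowtie2 2.4.5, on mm10. For read shifting, duplicate removal and settings, nothing is given in the sources used here. Each peak carries a deposited fold, a ratio of pileup to local background, deposited −log10 p and −log10 q values, and a display score that the authors deposited and that was not tested. These are the authors' values, and served for ranks, descriptions and filters within a list alone. The smallest −log10 q was 1.31. Read totals were not used. The lowest local background coverage, recovered from the deposited fold and −log10 p, was 3.01 to 6.05 extended reads per base in Ctrl and 3.52 to 4.82 in FGR.

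Gene ends came from RefSeq, assembly GRCm38.p6, which has mm10 coordinates. That table gives no exons, so positions inside genes are not divided into exons and introns. Starts and their strand came from RefSeq's promoter sequences. Lists were merged into regions wherever peaks shared at least 1 bp. limma 3.58.1 in R 4.3.3 tested each locus that averaged 2 or more peaks, using its trend option. Its input was log2 of the peak number, raised by 0.5, after division by list length (per 10000). The threshold was a Benjamini-Hochberg adjusted p of 0.05. Fisher's exact test was applied to each region. Other steps ran in Python 3.11.15 (pandas 2.3.3, numpy 2.4.6, matplotlib 3.10.9, scipy 1.17.1), and the scripts were first tested on simulated lists.

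The 40 genes and all lists were chosen with earlier results of these data known, so lists are given as counts beside the same share over all genes. All 40 genes are accounted for. Values per library are given for genes open in all 8 libraries, for those whose gene-end peak differs by at least 2 libraries between the groups and for the 6 tested loci with the smallest p. Other regions and genes named were chosen after their values were seen. Genes of other lists follow the count in all 8 libraries or a difference of at least 3. Alternatives covered the locus margin, the distance to the gene end, a minimum −log10 q, lists of equal length, the pseudocount, the filter on low loci, a replicate block, averaged pairs, sets of libraries and each library left out.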

Additional observations from a re-analysis of the deposited data

Results flagged for a closer look

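Of 22 sets of 4 libraries checked for a library far from the rest, 1 stood out, and chance gives about 1 in 20. FGR replicate 4 had a gene-end peak at 27.5% of the 40 imprinted genes, while the other 3 FGR libraries each had 35%. The genes are few, so that the step is 3 genes. With 3 equal values a step of any size would be flagged, so the rate of 1 in 20 does not hold here.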

How the results depend on the processing

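The count of genes open in all 8 libraries ranged from 4 to 8 over 15 alternatives. In lists of equal length, 34 genes instead of 17 had no gene-end peak, the difference in their share turned to −2.5 percentage points, and the difference in peaks per 10000 turned to −0.23. There Impact and Ppp1r9a turned to −0.063 and −0.12 on the log2 scale, and Kcnq1 had too few peaks to be tested. With replicates 3 and 4 alone the share differed by 2.5 points, and 2 regions were then present throughout FGR and absent from Ctrl. With a minimum −log10 q of 5 the difference per 10000 was 0.835, and without division by list length it was 24.25 peaks. With a margin of 50 kb, 1 region was called in 4 FGR and 0 Ctrl libraries. Leaving out 1 library at a time gave 6 genes open in all libraries each time, 17 to 20 with no peak, differences of 6.46 to 13.1 points and of 2.57 to 3.79 per 10000, 0 to 0 loci called higher or lower, 0 to 2 regions present throughout FGR and absent from Ctrl, and 0 to 0 the other way. Without FGR replicate 1 the 2 regions were at Plagl1 and Gnas, and without FGR replicate 3 both were at Impact.

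The replicate numbers did not pair Ctrl with FGR libraries (correlations of deviations −0.02, 0.10, 0.07 and 0.03). With a replicate block, 1 of the 9 loci, Kcnq1, was called higher (log2 difference 0.95, adjusted p 0.0299 by limma), beside 54 loci higher and 87 lower over the whole table against 1 and 0 without the block. The adjusted p of Kcnq1 by limma ran from 0.0299 to 0.452 over 16 alternatives. With all 8 lists and the 20 kb margin, that locus passed the filter only through its FGR libraries. Over all loci, a pseudocount of 1 gave 7 calls higher and 50 lower, lists of equal length 13 and 7, no filter 7 and 9, and omission of Ctrl replicate 3 8 and 7. Few peaks per locus limit what could be detected.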

Other observations

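Other letters searched at the starts were rarer at imprinted genes than at all starts, or close to it. GCCATNTT, a core of the YY1 site, was present at 3 of the 51 imprinted starts (5.88%), among them the open start of Ube3a, and at 6.37% of all starts. CCGGAAGT, of the ETS family, was present at 1 (1.96%, at Mkrn3), against 5.15%. GAGGAAGT, of PU.1, a factor that specifies macrophages, was present at 1 (1.96%, at Slc22a18), against 3.13%. None of the 7 imprinted starts open in all 8 libraries held the ETS or the PU.1 letters.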
